A study of Homo sapiens with 10 samples.

Results

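The genes described here are those of the proteasome, taken by symbol as the protein-coding genes named PSM followed by a letter from A to G and a number in the GENCODE annotation. There were 48 of them among the 58395 genes of the count files. RNA was sequenced from HeyA8, an established line of human ovarian cancer cells, after transfection of siRNA duplexes at 10 nM. There were 5 groups of 2 libraries. Cells received siNT1, a non-targeting control duplex labelled siNT1 S2'OM, for 24 h or 48 h, or siGGGGGC, titled siMxy, for 24 h or 48 h, or siGGCAGU, titled si34a, for 48 h. Each toxic duplex is named after positions 2 to 7 of its guide strand, the seed with which it pairs to mRNAs as a microRNA does. Both libraries of a group came from wells of the same kind of transfection of 1 cell line, so the p-values measure the spread between wells and libraries. Of the 48 genes, 46 passed the filter on low counts. PSMA8, a testis form of an alpha subunit, had 0 counts in every library. PSMB11, the thymus form of a catalytic subunit, had 0 to 2 counts per library.

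The proteasome degrades proteins that carry ubiquitin chains. Its core is a barrel of stacked rings, in which the alpha subunits (PSMA) form the gates and the beta subunits (PSMB) form the chamber that holds the proteolytic sites. The regulatory particle that caps the barrel has a base of ATPases (PSMC), which unfold and feed in the substrate, and a lid (PSMD) that removes ubiquitin. In cells that respond to interferon the catalytic subunits PSMB5, PSMB6 and PSMB7 can be replaced by PSMB8, PSMB9 and PSMB10, which gives the immunoproteasome, and the ring of PSME1 and PSME2 can take the place of a cap; both are known for their part in producing peptides for antigen presentation. Dedicated chaperones, PSMG1 to PSMG4 for the core and PSMD5, PSMD9 and PSMD10 for the base, guide assembly.

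Total counts ranged from 19781445 to 42428986 per library, and the small RNA genes RN7SL2 and SNORD3A took 19.83% to 31.96% of them, with both ends of that range at 48 h (siNT1 replicate 1 and siGGCAGU replicate 1). Replicates of a group differed by more than counting noise. All 10 genes that the study chose as siGGGGGC targets were lower with siGGGGGC at 24 h and at 48 h. They were picked on such libraries, so this checks the labels and is no independent evidence. Of the markers of ovarian carcinoma and epithelium, PAX8, WT1, KRT7, KRT8 and KRT18 were detected, EPCAM had 10.46 to 40.59 normalised counts, and MUC16 and CDH1 did not pass the filter. At 48 h with siGGGGGC 5 of the 6 epithelial markers tested and all 3 mesenchymal markers were lower (27.5% of all genes), and the part of this in the results below was not tested. Of the markers of other cells, PTPRC, CD3E and CD14 had at most 5.589 normalised counts in a library, PECAM1 at most 19.09 and COL1A1 at most 31.39. In RNA of a whole well, more cells making a transcript and more transcript per cell cannot be told apart.

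The seed matches are shown first because the duplexes are named by their seeds, and these are the words in the mRNAs that can pair with them. miR-34a-5p has the seed of siGGCAGU, and miR-1237-5p is one of the mature human microRNAs in RefSeq with that of siGGGGGC; capitals mark bases 2 to 8.
hsa-miR-34a-5p: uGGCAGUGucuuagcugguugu
hsa-miR-1237-5p: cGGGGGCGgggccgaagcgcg
The word that pairs with siGGGGGC is GCCCCC and that for siGGCAGU is ACTGCC. In the longest annotated 3′ UTR, 8 of the 48 genes held GCCCCC (16.7%) and 8 held ACTGCC (16.7%), against 30.2% and 32.7% of 19248 genes with a 3′ UTR. The proteasome genes had shorter 3′ UTRs, with a median of 477.5 bases against 1228.5. The sites below are those of the members with most copies and of members that moved furthest among those with a site, on hg38 and in the direction of the transcript, with the match in capitals.
PSMF1 3′ UTR, chr20:1168422-1168451, plus strand: gatgtaccagcaGCCCCCacatcacacctc
PSMF1 3′ UTR, chr20:1170417-1170446, plus strand: ctccattcctttGCCCCCatgggtcactta
PSMD13 3′ UTR, chr11:252858-252887, plus strand: gccaggcaggagGCCCCCtgaagtctgtgt
PSMD9 3′ UTR, chr12:121918167-121918196, plus strand: tgtgtcatatctGCCCCCagccagctggaa
PSMD8 3′ UTR, chr19:38383379-38383408, plus strand: atgatcgtctgaGCCCCCcgggcactgggt
PSMG4 3′ UTR, chr6:3265531-3265560, plus strand: aataccagggggGCCCCCttagggtaaagg
PSME3 3′ UTR, chr17:42843128-42843157, plus strand: ttggactgttccACTGCCcctcctcctcac
PSME3 3′ UTR, chr17:42843533-42843562, plus strand: tgatacccatgaACTGCCagtagaggctgc
PSMG4 3′ UTR, chr6:3265636-3265665, plus strand: gcttcctaccacACTGCCtgcctttagatc
PSME1 3′ UTR, chr14:24138945-24138964, plus strand: tatagttataccACTGCCca
PSMD5 3′ UTR, chr9:120817642-120817671, minus strand: cagattcctttcACTGCCttaatctttgca
PSMD13 also had a copy of GCCCCC at the start of its 3′ UTR and PSMG4 a further copy of ACTGCC; the 3′ UTR of the canonical PSMG4 transcript held 0 of these words.

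Summed proteasome mRNA was higher in every treated library than in its controls; the sum was not tested. Summed over the 48 genes it is given in CPM, here counts scaled to effective library size (total counts times the TMM factor). It made up 5563 and 5876 CPM with siNT1 at 48 h. With siGGCAGU it made up 7110 and 6812 and with siGGGGGC 7566 and 7642, so that all 4 treated libraries lay above both controls. The margin rests in part on the TMM factors, 1.198 for siNT1 replicate 1 and 0.9384 for siGGCAGU replicate 1 at 48 h. By total counts alone these libraries would be nearly equal, with siGGCAGU replicate 1 only just above. At 24 h the sums were 6386 and 6529 with siNT1 and 7209 and 7377 with siGGGGGC. Between the siNT1 groups the scaled sum was lower at 48 h than at 24 h, an order that rests on the TMM factors. These were 0.9754 and 0.9434 with siNT1 at 24 h, and by total counts alone the order would be the opposite. These sums are dominated by the beta and alpha rings and the lid, and the inducible and tissue-specific subunits together gave 8.152 to 34.18 CPM in any library.

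Calls rest on the edgeR quasi-likelihood test at an adjusted p below 0.05, with the Benjamini-Hochberg adjustment over the 16905 genes tested. With siGGGGGC at 24 h, 8 of the 46 tested members were called higher, where 10.6% of all genes were, and 0 were called lower, where 8.31% of all genes were. With DESeq2 0 members were called lower as well, 0 were lower at an unadjusted p under 0.05 in the edgeR test, and PSMA1, at -0.15 (edgeR adjusted p = 0.295), had the lowest value. At 48 h with siGGGGGC 27 were called higher (27.8% of all genes) and 8 lower (27.5%), and with siGGCAGU 26 higher (27.8%) and 4 lower (24.9%). The median log2 fold change of the members was 0.14, 0.31 and 0.26 in these comparisons, and that of all genes 0.0038, -0.0114 and 0.0244. Most members are highly expressed, and among the 3506 genes with a mean normalised count of at least 1000, 36.6% were called higher with siGGGGGC and 32.4% with siGGCAGU at 48 h, against 68.6% and 62.9% of the 35 members in that range. Lower calls in that range were 30.4% and 33.1% of all genes and 11.4% and 8.57% of members, and at 24 h 16.5% and 10.2% of all genes were higher and lower against 17.1% and 0% of members. This range was chosen after the data were seen. At a log2 fold change above 1, 2 members remained with siGGGGGC at 48 h, PSMB8 and PSMB9 (10.5% of all genes), and 4 with siGGCAGU, PSMB8, PSMB9, PSMB10 and PSME1 (10.7%). PSMB9 is in these counts, in the 27 and 26 higher calls and in the counts of higher non-overlapping libraries at 48 h given below. It would not have passed the filter on low counts without the treated libraries of 48 h, so it adds no support to them. Below -1 there were 0 members with either duplex at 48 h (11% and 9.62% of all genes), and 0 lay beyond 1 in either direction at 24 h (1.56% and 2.17%). The libraries of a member did not overlap with siNT1, and were higher, for 31 members with siGGGGGC at 24 h (32% of all genes), 31 at 48 h (38.1%) and 29 with siGGCAGU (37.7%), and lower for 5 (30.7%), 11 (39.3%) and 5 (35%). Both comparisons at 48 h share their siNT1 libraries.

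**Figure D1:**
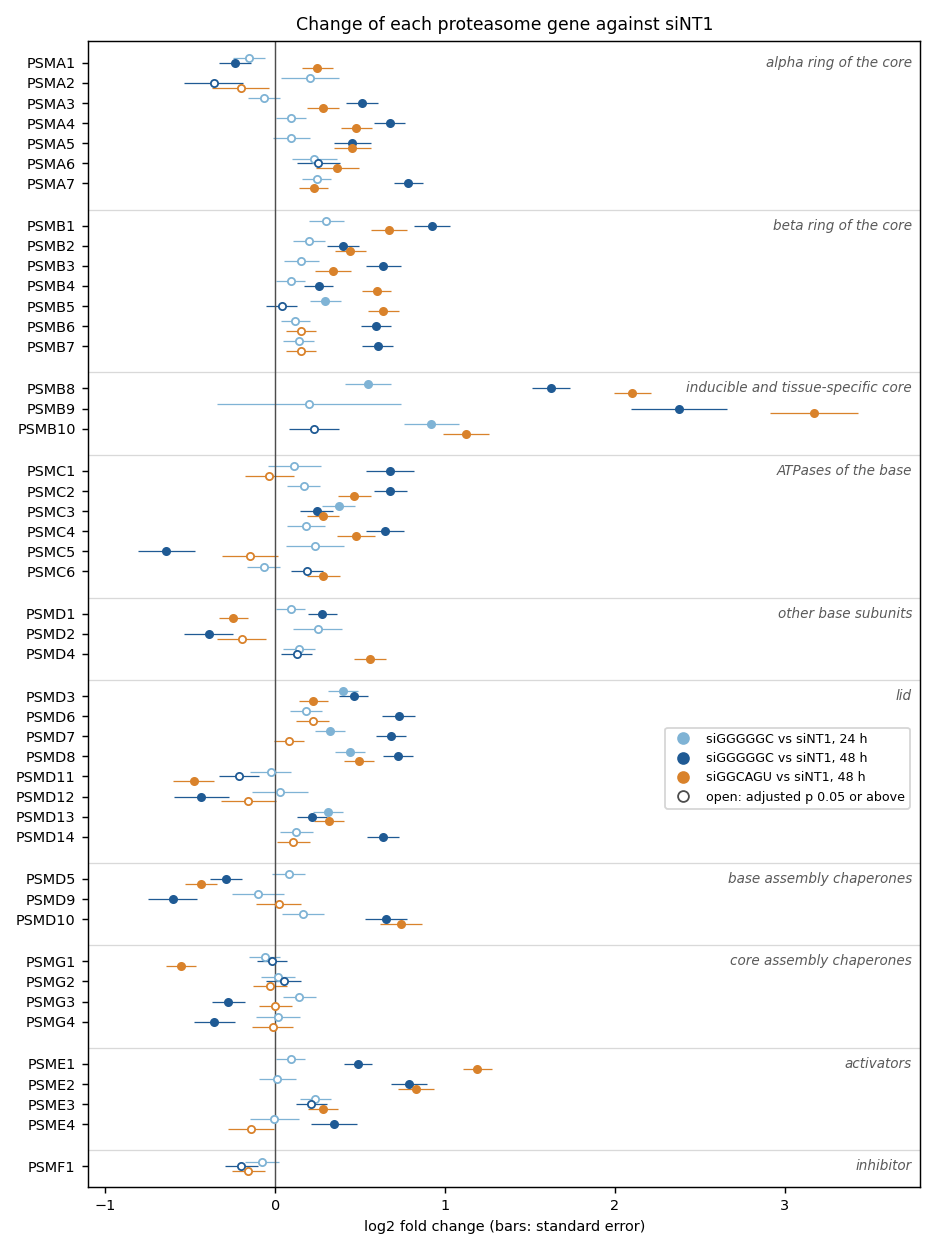
The log2 fold change against siNT1 (x axis, with the standard error as a bar) of each of the 46 tested proteasome genes (y axis, grouped by role) in 3 comparisons, with filled points for an adjusted p below 0.05. Most core, ATPase and lid genes lie right of 0 at 48 h, PSMB8 and PSMB9 lie furthest right there, and several chaperones lie at or left of 0.

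The plot of each gene's change by role shows the core subunits first. Of the 7 alpha subunits, 4 were called higher and 1 lower with siGGGGGC at 48 h (27.8% and 27.5% of all genes), and 6 higher with siGGCAGU (27.8%). PSMA7 (ENSG00000101182, chromosome 20, 62136733 to 62143440 on hg38), an outer ring subunit, had normalised counts of 11660 and 11910 with siNT1 and 14030 and 13910 with siGGGGGC at 24 h, and 9558 and 10450 with siNT1, 11830 and 11600 with siGGCAGU and 17420 and 17050 with siGGGGGC at 48 h. Its siGGGGGC libraries lay above all others of the same time point, with a log2 fold change of 0.79 (standard error 0.09, edgeR adjusted p = 1.74e-06) at 48 h and 0.23 (edgeR adjusted p = 0.0362) with siGGCAGU, a call lost in 12 of 18 alternatives, among them the fits without either siGGCAGU library. The other alpha subunits ranged from -0.36 (PSMA2) to 0.67 (PSMA4) with siGGGGGC at 48 h. PSMA1 was called in opposite directions, at -0.24 (edgeR adjusted p = 0.0409) with siGGGGGC and 0.25 (edgeR adjusted p = 0.0325) with siGGCAGU, and these calls were lost in 10 and 11 of 18 alternatives, DESeq2 included. PSMA1, PSMA2 and PSMA6 share 67%, 100% and 81.4% of their canonical transcript with another protein-coding gene annotated on the same strand. Their values are uncertain for this reason, and PSMA2 and PSMA6 had only 109.8 to 283.2 normalised counts per library.

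Of the 7 constitutive beta subunits, 6 were called higher with siGGGGGC and 5 with siGGCAGU at 48 h (27.8% of all genes with each). With either duplex 0 were called lower (27.5% and 24.9% of all genes). PSMB1 (ENSG00000008018, chromosome 6, 170535120 to 170553307), a structural beta subunit, had 10520 and 10440 with siNT1 and 12410 and 13430 with siGGGGGC at 24 h, and 7694 and 8940 with siNT1, 14440 and 12030 with siGGCAGU and 15490 and 16060 with siGGGGGC at 48 h. The treated libraries at 48 h did not overlap with siNT1, and the log2 fold change was 0.92 (standard error 0.11, edgeR adjusted p = 2.72e-06) with siGGGGGC and 0.67 (standard error 0.10, edgeR adjusted p = 6.83e-05) with siGGCAGU. PSMB2, PSMB3 and PSMB4, the other structural subunits, were at 0.40, 0.64 and 0.26 with siGGGGGC and 0.44, 0.34 and 0.60 with siGGCAGU at 48 h, all called. The PSMB4 call with siGGGGGC was lost in 4 and the PSMB3 call with siGGCAGU in 3 of 18 alternatives, both also without siNT1 replicate 1.

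The 3 constitutive catalytic subunits split by duplex. PSMB5 (ENSG00000100804, chromosome 14, 23016543 to 23035230), which carries the chymotrypsin-like site, had 4996 and 5437 with siNT1 and 6276 and 6536 with siGGGGGC at 24 h, and 4482 and 4902 with siNT1, 7619 and 6963 with siGGCAGU and 4636 and 5011 with siGGGGGC at 48 h. It was higher with siGGCAGU at 48 h, by a log2 fold change of 0.64 (standard error 0.09, edgeR adjusted p = 2.74e-05), while with siGGGGGC at 48 h it was at 0.04 (edgeR adjusted p = 0.735) and the libraries overlapped with siNT1. PSMB6 (ENSG00000142507, chromosome 17, 4796144 to 4798502), which carries the caspase-like site, had 6110 and 6443 with siNT1 and 6912 and 6726 with siGGGGGC at 24 h, and 5670 and 6405 with siNT1, 6639 and 6780 with siGGCAGU and 9037 and 9184 with siGGGGGC at 48 h. For PSMB7 (ENSG00000136930, chromosome 9, 124353465 to 124415444), with the trypsin-like site, the values were 9354 and 9368 with siNT1 and 9783 and 10810 with siGGGGGC at 24 h, and 7313 and 8070 with siNT1, 8865 and 8242 with siGGCAGU and 11720 and 11680 with siGGGGGC at 48 h. Both were higher with siGGGGGC at 48 h, by 0.59 (standard error 0.09, edgeR adjusted p = 3.39e-05) and 0.60 (standard error 0.09, edgeR adjusted p = 4.14e-05), and neither passed the test with siGGCAGU, at 0.15 (edgeR adjusted p = 0.158) and 0.15 (edgeR adjusted p = 0.173). Compared directly at 48 h, siGGGGGC and siGGCAGU differed in all 3, with PSMB5 lower in siGGGGGC at -0.60 (standard error 0.09, edgeR adjusted p = 4.94e-05) and PSMB6 and PSMB7 higher by 0.44 (standard error 0.09, edgeR adjusted p = 0.000505) and 0.45 (standard error 0.09, edgeR adjusted p = 0.000571). At 24 h only PSMB5 of the 7 passed, at 0.30 (edgeR adjusted p = 0.034), and it lost that call in 6 of 18 alternatives. Of all genes 10.6% were called higher there.

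PSMB8 and PSMB9, inducible catalytic subunits, had the largest changes at 48 h with both duplexes. PSMB8 (ENSG00000204264, chromosome 6, 32840717 to 32844679), which replaces PSMB5, had 115.7 and 119.1 with siNT1 and 168.9 and 174.5 with siGGGGGC at 24 h, and 124.7 and 123.2 with siNT1, 542.7 and 522.9 with siGGCAGU and 389 and 375.9 with siGGGGGC at 48 h. Every library of siGGCAGU lay above those of siGGGGGC at 48 h, and these above all libraries of 24 h and the controls. The log2 fold change was 2.102 (standard error 0.11, edgeR adjusted p = 5.31e-10) with siGGCAGU and 1.62 (standard error 0.11, edgeR adjusted p = 1.21e-08) with siGGGGGC at 48 h, and 0.55 (standard error 0.13, edgeR adjusted p = 0.00963) with siGGGGGC at 24 h. The call at 24 h was lost without siNT1 replicate 1 or siGGGGGC replicate 2.

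PSMB9 (ENSG00000240065, chromosome 6, 32844136 to 32859851), which replaces PSMB6, is the neighbour of PSMB8 on the opposite strand and was near the limit of detection in controls. It had 7.16 and 6.546 with siNT1 and 7.218 and 8.583 with siGGGGGC at 24 h, and 8.519 and 10.88 with siNT1, 94.16 and 86.28 with siGGCAGU and 59.24 and 44.53 with siGGGGGC at 48 h, which at 24 h came from 5 or 6 reads per library. It reached the threshold of the filter on low counts in both siGGCAGU and both siGGGGGC libraries at 48 h. In controls it did so in 1 siNT1 library at 48 h, fewer than the 2 needed. A gene that enters this way was in effect picked for being high there, so the PSMB9 call at 48 h is no support for a change of the group. The log2 fold change was 3.17 (standard error 0.26, edgeR adjusted p = 6.76e-08) with siGGCAGU and 2.38 (standard error 0.28, edgeR adjusted p = 3.96e-06) with siGGGGGC at 48 h, and at 24 h it was 0.20 (edgeR adjusted p = 0.858), where this depth does not show a change of that size.

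PSMB10 (ENSG00000205220, chromosome 16, 67934506 to 67936864), which replaces PSMB7, had 101.4 and 86.41 with siNT1 and 183.3 and 173.1 with siGGGGGC at 24 h, and 117.7 and 119.2 with siNT1, 249.8 and 265.5 with siGGCAGU and 152 and 126.3 with siGGGGGC at 48 h. It was higher with siGGGGGC at 24 h, by 0.92 (standard error 0.16, edgeR adjusted p = 0.000989), the one member whose 24 h call held in all 18 alternatives, but not at 48 h, at 0.23 (edgeR adjusted p = 0.196). With siGGCAGU at 48 h it was higher by 1.12 (standard error 0.14, edgeR adjusted p = 4.97e-06). PSMB10 shares 56.1% of its canonical transcript with another protein-coding gene annotated on the same strand. In the direct comparison at 48 h all 3 inducible subunits were lower with siGGGGGC than with siGGCAGU, at -0.89 (standard error 0.14, edgeR adjusted p = 6.44e-05) for PSMB10, -0.79 (standard error 0.22, edgeR adjusted p = 0.00579) for PSMB9 and -0.48 (standard error 0.10, edgeR adjusted p = 0.000997) for PSMB8. The PSMB9 difference lost its call with DESeq2 and without siGGGGGC replicate 2.

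**Figure D2:**
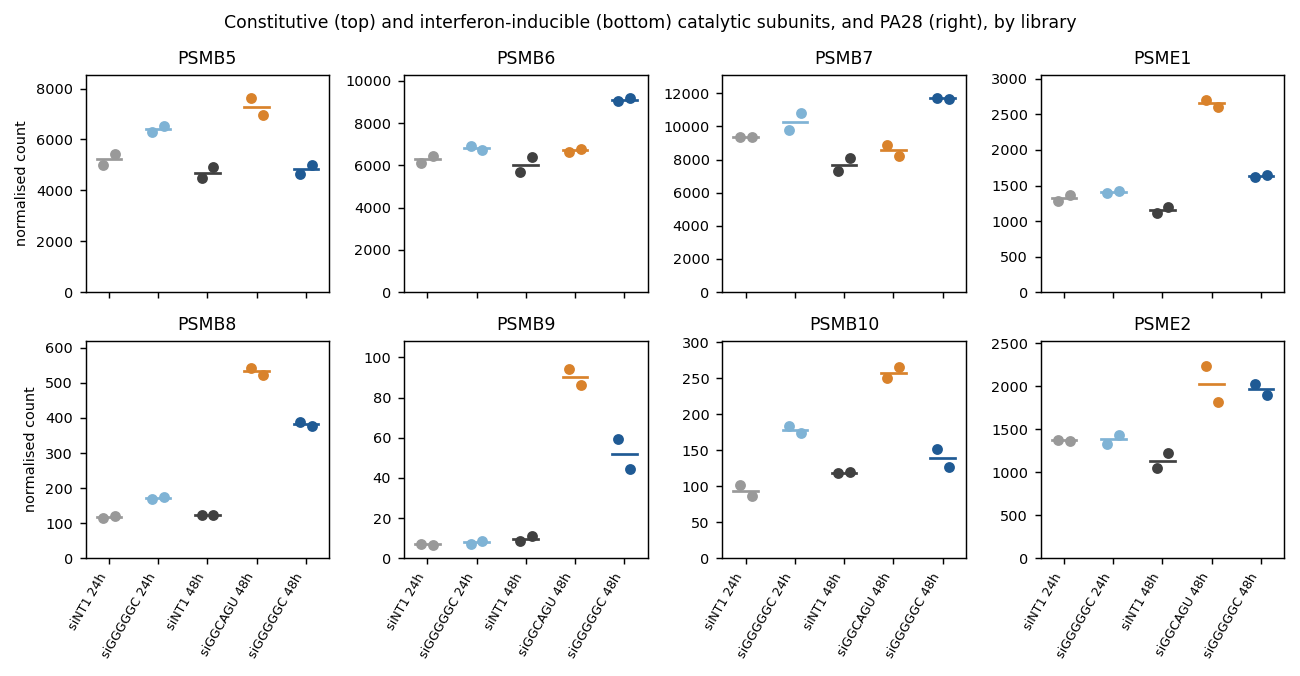
Normalised counts (y axis, from 0) of the catalytic subunits and of PSME1 and PSME2 in each library (points) of the 5 groups (x axis), with the group mean as a line. PSMB8, PSMB9, PSMB10 and PSME1 are highest with siGGCAGU at 48 h, and PSMB6 and PSMB7 are highest with siGGGGGC at 48 h.

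The plot of normalised counts by library compares each gene with itself. Per length, the inducible subunits stayed far below their constitutive partners. With siNT1 at 48 h the RPKM, which divides the scaled count by the exon length, was 1.37 for PSMB8, 0.112 for PSMB9 and 2.80 for PSMB10, and 116.5, 160.4 and 165.4 for PSMB5, PSMB6 and PSMB7. With siGGCAGU at 48 h the levels were 5.89, 1.04 and 6.09 against 180.9, 178.3 and 183.9. By the length of the canonical transcript all 6 levels with siNT1 at 48 h were higher, at 4.24, 0.367 and 4.66 for PSMB8, PSMB9 and PSMB10 and 172.8, 281.7 and 300.5 for their partners.

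The ratio of an inducible subunit to its partner within a library needs no scaling between libraries. For PSMB8 over PSMB5, in normalised counts, it was 0.0232 and 0.0219 with siNT1 and 0.0269 and 0.0267 with siGGGGGC at 24 h, and 0.0278 and 0.0251 with siNT1, 0.0712 and 0.0751 with siGGCAGU and 0.0839 and 0.075 with siGGGGGC at 48 h. The libraries of both duplexes lay above all controls at 48 h and their ranges overlapped, and PSMB5 itself was lower with siGGGGGC than with siGGCAGU. For PSMB9 over PSMB6 the ratio was 0.0015 and 0.0017 with siNT1, 0.0142 and 0.0127 with siGGCAGU and 0.00656 and 0.00485 with siGGGGGC at 48 h. PSMB10 over PSMB7 behaved differently, at 0.0161 and 0.0148 with siNT1, 0.0282 and 0.0322 with siGGCAGU and 0.013 and 0.0108 with siGGGGGC at 48 h, where both siGGGGGC libraries lay below the controls. At 24 h this last ratio was 0.0108 and 0.00922 with siNT1 and 0.0187 and 0.016 with siGGGGGC, so the order of the groups was the opposite. With 2 libraries a group, a permutation of the labels cannot reach 0.05, and no test was run on the ratios.

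**Figure D3:**
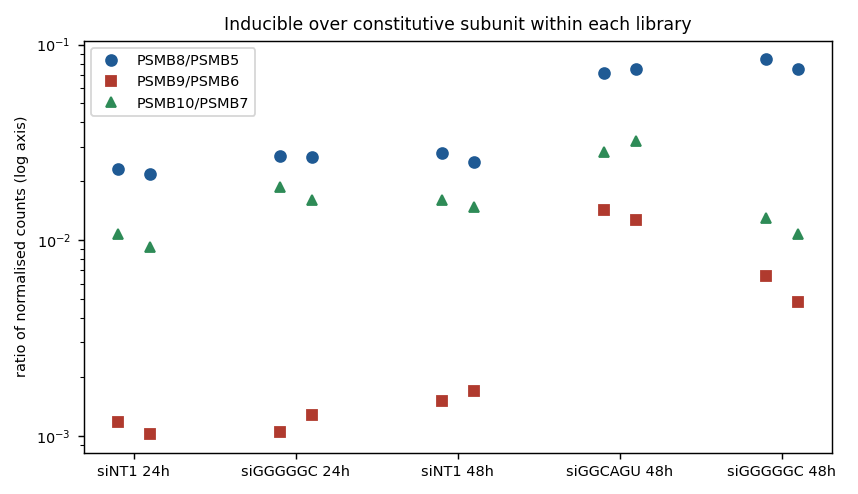
Ratio of each inducible catalytic subunit to the constitutive subunit it replaces (y axis, log scale, normalised counts) in every library of the 5 groups (x axis). PSMB8/PSMB5 is 0.0712 to 0.0839 with either duplex at 48 h and at most 0.0278 elsewhere, and PSMB10/PSMB7 is above its siNT1 control with siGGGGGC at 24 h and below it at 48 h.

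Among the activators, PSME1 and PSME2 form a ring that interferon induces, while PSME3 is its nuclear relative and PSME4 a separate single-chain activator. PSME1 (ENSG00000092010, chromosome 14, 24136163 to 24138967) had 1286 and 1367 with siNT1 and 1396 and 1429 with siGGGGGC at 24 h, and 1120 and 1204 with siNT1, 2704 and 2607 with siGGCAGU and 1615 and 1651 with siGGGGGC at 48 h. Its siGGCAGU libraries stood apart from all others, with a log2 fold change of 1.19 (standard error 0.08, edgeR adjusted p = 1.19e-08), against 0.49 (standard error 0.08, edgeR adjusted p = 0.000132) with siGGGGGC at 48 h and a direct difference of -0.70 (standard error 0.08, edgeR adjusted p = 3.36e-06). PSME2 (ENSG00000100911, chromosome 14, 24143362 to 24147570), which has 6 annotated pseudogenes, had 1378 and 1364 with siNT1 and 1332 and 1433 with siGGGGGC at 24 h, and 1052 and 1220 with siNT1, 2240 and 1814 with siGGCAGU and 2031 and 1896 with siGGGGGC at 48 h. It rose with both duplexes at 48 h, by 0.83 (standard error 0.11, edgeR adjusted p = 8.95e-06) and 0.79 (standard error 0.11, edgeR adjusted p = 1.52e-05), and the difference between them was -0.04 with a standard error of 0.11 (edgeR adjusted p = 0.759). PSME3, with the copies of ACTGCC shown above, had 2169 and 2220 with siNT1 and 2606 and 2569 with siGGGGGC at 24 h. At 48 h it had 2235 and 2158 with siNT1, 2473 and 2862 with siGGCAGU and 2430 and 2662 with siGGGGGC. It was higher with siGGCAGU, at 0.28 (edgeR adjusted p = 0.0154), a call lost in 4 of 18 alternatives. PSME4 was higher with siGGGGGC at 48 h, at 0.34 (edgeR adjusted p = 0.041), a call that was lost in 10 of 18 alternatives and rests on siNT1 libraries of 1396 and 931.5.

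In the base of the regulatory particle, 4 of the 6 ATPases were called higher with either duplex at 48 h (27.8% of all genes with each). PSMC2, PSMC3 and PSMC4 were called with both, at 0.68, 0.25 and 0.65 with siGGGGGC and 0.47, 0.28 and 0.47 with siGGCAGU. The PSMC3 calls were lost in 11 and 4 of 18 alternatives. PSMC1 (ENSG00000100764, chromosome 14, 90256527 to 90275429) had 176.6 and 205.5 with siNT1 and 213.6 and 198.8 with siGGGGGC at 24 h, and 154.9 and 184.5 with siNT1, 146.5 and 182.2 with siGGCAGU and 264.9 and 279.6 with siGGGGGC at 48 h, and was higher with siGGGGGC than with siGGCAGU at 48 h by 0.71 (standard error 0.14, edgeR adjusted p = 0.000661). PSMC1 has 13 annotated pseudogenes and shares 83.2% of its canonical transcript with NRDE2 on the other strand, and the strand setting of the counting is not known, so its value is uncertain.

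PSMC5 (ENSG00000087191, chromosome 17, 63827152 to 63832026) was the ATPase called lower. It had 1142 and 1091 with siNT1 and 1390 and 1236 with siGGGGGC at 24 h, and 1977 and 1449 with siNT1, 1195 and 1876 with siGGCAGU and 1093 and 1099 with siGGGGGC at 48 h. It was lower with siGGGGGC at 48 h at -0.64 (standard error 0.17, edgeR adjusted p = 0.00426) and not called with siGGCAGU, at -0.15 (edgeR adjusted p = 0.48). Its replicates differed within siNT1 and within siGGCAGU at 48 h, and without siNT1 replicate 1 the call with siGGGGGC was lost. The same libraries differed in PSMD2, a scaffold of the base, with 13650 and 9699 with siNT1 and 8647 and 11690 with siGGCAGU, and in PSMD12 of the lid. siNT1 replicate 1 and siGGCAGU replicate 1 were also the libraries at the ends of the range of RN7SL2 and SNORD3A, at 19.83% and 31.96%, and the part of this in these values was not tested. PSMD2 was called lower with siGGGGGC, at -0.39 (edgeR adjusted p = 0.0326), but without single libraries its value ranged from -0.63 to -0.14, and the call was lost without siNT1 replicate 1 or either siGGGGGC library at 48 h. PSMD1, the other scaffold, was called higher with siGGGGGC at 0.28 (edgeR adjusted p = 0.012) and lower with siGGCAGU at -0.25 (edgeR adjusted p = 0.0242), calls lost in 4 and 3 of 18 alternatives, with a direct difference of 0.53 (standard error 0.09, edgeR adjusted p = 9.12e-05). PSMD4, a ubiquitin receptor, was higher with siGGCAGU only among the tests against siNT1, at 0.56 (edgeR adjusted p = 0.000113), and differed between the duplexes at -0.43 (standard error 0.09, edgeR adjusted p = 0.00103).

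The lid was the largest group of the regulatory particle. Of its 8 genes 6 were called higher with siGGGGGC at 48 h (27.8% of all genes), 4 at 24 h (10.6%) and 3 with siGGCAGU (27.8%). PSMD8 (ENSG00000099341, chromosome 19, 38374563 to 38383850), a lid subunit whose 3′ UTR holds GCCCCC, had 4460 and 4654 with siNT1 and 5944 and 6408 with siGGGGGC at 24 h, and 4075 and 4226 with siNT1, 6174 and 5526 with siGGCAGU and 6721 and 6981 with siGGGGGC at 48 h. It was higher with siGGGGGC at both times, by 0.44 (standard error 0.09, edgeR adjusted p = 0.00268) at 24 h and 0.72 (standard error 0.09, edgeR adjusted p = 5.04e-06) at 48 h, and with siGGCAGU by 0.49 (standard error 0.09, edgeR adjusted p = 0.000208). The 24 h call was lost without siNT1 replicate 1.

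PSMD7 (ENSG00000103035, chromosome 16, 74296814 to 74306288), the partner of the deubiquitinase PSMD14, had 1495 and 1403 with siNT1 and 1879 and 1749 with siGGGGGC at 24 h, and 1358 and 1409 with siNT1, 1378 and 1549 with siGGCAGU and 2251 and 2195 with siGGGGGC at 48 h. It was higher with siGGGGGC than with either siNT1 or siGGCAGU at 48 h, by 0.68 (standard error 0.09, edgeR adjusted p = 8.41e-06) and 0.60 (standard error 0.09, edgeR adjusted p = 3.21e-05), and 0.08 (edgeR adjusted p = 0.448) was its value with siGGCAGU. It shares 51.6% of its canonical transcript with a noncoding gene on the other strand. The strand setting of the counting is not known, so its value is uncertain. PSMD14 itself, which removes ubiquitin chains at the lid, followed the same order, at 0.63 (edgeR adjusted p = 4.5e-05) with siGGGGGC and 0.11 (edgeR adjusted p = 0.373) with siGGCAGU. PSMD6 was at 0.73 and 0.22 and PSMD3 at 0.46 and 0.23 with siGGGGGC and siGGCAGU at 48 h, with the PSMD6 value for siGGCAGU not called and the PSMD3 call for siGGCAGU lost in 14 of 18 alternatives, DESeq2 included.

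PSMD11 and PSMD12 were the lid genes called lower, each with 1 duplex (27.5% of all genes with siGGGGGC and 24.9% with siGGCAGU at 48 h). PSMD11 (ENSG00000108671, chromosome 17, 32444379 to 32483319), which has a site for siGGGGGC, had 1568 and 1485 with siNT1 and 1563 and 1433 with siGGGGGC at 24 h, and 1721 and 1848 with siNT1, 1078 and 1467 with siGGCAGU and 1476 and 1600 with siGGGGGC at 48 h. It was called lower with siGGCAGU, at -0.48 (standard error 0.12, edgeR adjusted p = 0.00286), and not with siGGGGGC at 48 h, at -0.21 (edgeR adjusted p = 0.135). PSMD12 (ENSG00000197170, chromosome 17, 67337916 to 67366605) had 2786 and 2766 with siNT1 and 2897 and 2768 with siGGGGGC at 24 h, and 4127 and 3523 with siNT1, 2572 and 4265 with siGGCAGU and 2687 and 2969 with siGGGGGC at 48 h, so that its siGGCAGU libraries lay on either side of both controls. With siGGGGGC at 48 h it was lower at -0.44 (standard error 0.16, edgeR adjusted p = 0.0314), a call lost without siNT1 replicate 1, siGGGGGC replicate 1 or siGGGGGC replicate 2. PSMD13, with 2 copies of GCCCCC, had 5742 and 5681 with siNT1 and 6933 and 7232 with siGGGGGC at 24 h. At 48 h it had 4958 and 4929 with siNT1, 6445 and 5890 with siGGCAGU and 5453 and 6046 with siGGGGGC. Its log2 fold change with siGGGGGC at 48 h was 0.22 (edgeR adjusted p = 0.045), a call that was lost in 12 of 18 alternatives.

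The core chaperones help to build the rings. Of the 4 core chaperones, 0 were called higher in any of the 3 comparisons with siNT1 (10.6% of all genes at 24 h, 27.8% with either duplex at 48 h). At 48 h 2 were called lower with siGGGGGC (27.5% of all genes) and 1 with siGGCAGU (24.9%). The latter, 1 of 4, is near the share of all genes. PSMG1 (ENSG00000183527, chromosome 21, 39174769 to 39183488), which with PSMG2 builds the alpha ring, had 2151 and 2337 with siNT1 and 2170 and 2128 with siGGGGGC at 24 h, and 1681 and 1938 with siNT1, 1254 and 1213 with siGGCAGU and 1786 and 1791 with siGGGGGC at 48 h. It was lower with siGGCAGU, at -0.55 (standard error 0.09, edgeR adjusted p = 9.27e-05), and at -0.02 (edgeR adjusted p = 0.884) with siGGGGGC at 48 h, with a direct difference of 0.54 (standard error 0.09, edgeR adjusted p = 0.000126). PSMG2 was at 0.05 and -0.03. PSMG4, with matches for both duplexes in its longest 3′ UTR, had 340.1 and 309 with siNT1 and 349.3 and 309 with siGGGGGC at 24 h, and 349.3 and 331.7 with siNT1, 312.6 and 357 with siGGCAGU and 243.7 and 286.8 with siGGGGGC at 48 h. It was called lower with siGGGGGC at 48 h, at -0.36 (edgeR adjusted p = 0.0215), as was PSMG3, its partner, at -0.28 (edgeR adjusted p = 0.0257), and both calls were lost with DESeq2.

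The base chaperones split. PSMD9 (ENSG00000110801, chromosome 12, 121888732 to 121918297), which holds a match for each duplex, had 133.6 and 141.4 with siNT1 and 127 and 128.7 with siGGGGGC at 24 h, and 151 and 155.8 with siNT1, 160.9 and 151.7 with siGGCAGU and 95 and 106.7 with siGGGGGC at 48 h. It was lower with siGGGGGC than with siNT1 or siGGCAGU at 48 h, at -0.60 (standard error 0.14, edgeR adjusted p = 0.00199) and -0.63 (standard error 0.15, edgeR adjusted p = 0.00193), and 28.8% of its canonical transcript is shared with another gene on the same strand. PSMD5 (ENSG00000095261, chromosome 9, 120815496 to 120842951), with a match for siGGCAGU, had 921.2 and 1016 with siNT1 and 1057 and 988.4 with siGGGGGC at 24 h, and 1040 and 965.9 with siNT1, 786 and 700.6 with siGGCAGU and 803.6 and 834.6 with siGGGGGC at 48 h. It was lower with both duplexes at 48 h, at -0.44 (standard error 0.10, edgeR adjusted p = 0.00119) with siGGCAGU and -0.29 (edgeR adjusted p = 0.0166) with siGGGGGC, the latter lost without siNT1 replicate 1 or either siGGGGGC library at 48 h. PSMD10, also known as gankyrin, was higher with both, at 0.65 (edgeR adjusted p = 0.000317) with siGGGGGC and 0.74 (edgeR adjusted p = 0.000101) with siGGCAGU. PSMF1, the inhibitor of the core, had 662.3 and 687.3 with siNT1 and 632.3 and 646.6 with siGGGGGC at 24 h, and 831.8 and 764.8 with siNT1, 673.5 and 752 with siGGCAGU and 656.1 and 732.1 with siGGGGGC at 48 h. With 2 copies of GCCCCC it was at -0.20 (standard error 0.10, edgeR adjusted p = 0.0922) with siGGGGGC at 48 h and was not called in any comparison.

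To ask whether both duplexes differ in the proteasome, siGGGGGC and siGGCAGU were compared directly at 48 h. Of the 46 members, 13 were higher with siGGGGGC (26.7% of all genes) and 12 lower (27.6%), so the shares were near the background in both directions, and the median was -0.04 against -0.0086 for all genes. By role, 5 of 8 lid genes were higher with siGGGGGC and 0 lower, of which the PSMD8 call was lost in 12 and the PSMD3 call in 6 of 18 alternatives, and all 3 inducible catalytic subunits were lower with 0 higher. The alpha ring had 1 gene in each direction, PSMA7 higher by 0.56 (standard error 0.09, edgeR adjusted p = 5.2e-05) and PSMA1 lower at -0.49 (standard error 0.09, edgeR adjusted p = 0.000403). At a log2 difference beyond 1, 0 members were called in either direction, and 10.1% and 12.8% of all genes were. Among genes of at least 1000 normalised counts 38.9% were higher and 28% lower, against 34.3% and 17.1% of members. The libraries did not overlap for 19 members higher with siGGGGGC (37.7%) and 14 lower (38%).

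The effect of siGGGGGC grew between 24 h and 48 h for many members. The interaction, the effect at 48 h minus that at 24 h, was called higher for 17 (13.4% of all genes) and lower for 4 (15.2%), with a median of 0.19 against -0.0117 for all genes. The constitutive ring, ATPase and lid genes among the 17 had a log2 fold change between 0.51 and 0.92 at 48 h and at most 0.32 at 24 h. PSMB8 differed by 1.08 (standard error 0.17, edgeR adjusted p = 0.000309). PSMB9, at 2.18 with a standard error of 0.63, is counted among the 17. It reached the filter in 0 of 4 libraries at 24 h, and at 48 h in both siGGGGGC libraries and 1 siNT1 library. Its direction is therefore tied to how it entered the test, and its value is a description. Its call rests on a few reads at 24 h and was lost without either siNT1 library or siGGGGGC replicate 1 of that time. The effect was lower at 48 h for PSMB10, at -0.69 (standard error 0.22, edgeR adjusted p = 0.027), and for PSMC5, at -0.88 (standard error 0.24, edgeR adjusted p = 0.0126). Among genes of at least 1000 normalised counts 22% were higher and 21% lower, against 42.9% and 5.71% of members. Beyond a log2 difference of 1, PSMB9 and PSMB8 were higher (4.84% of all genes) and 0 members lower (6.38%). Without single libraries the count of higher calls ranged from 6, without siNT1 replicate 2 at 24 h, to 19, and in 6 of the 21 members the call held in every alternative.

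**Figure D4:**
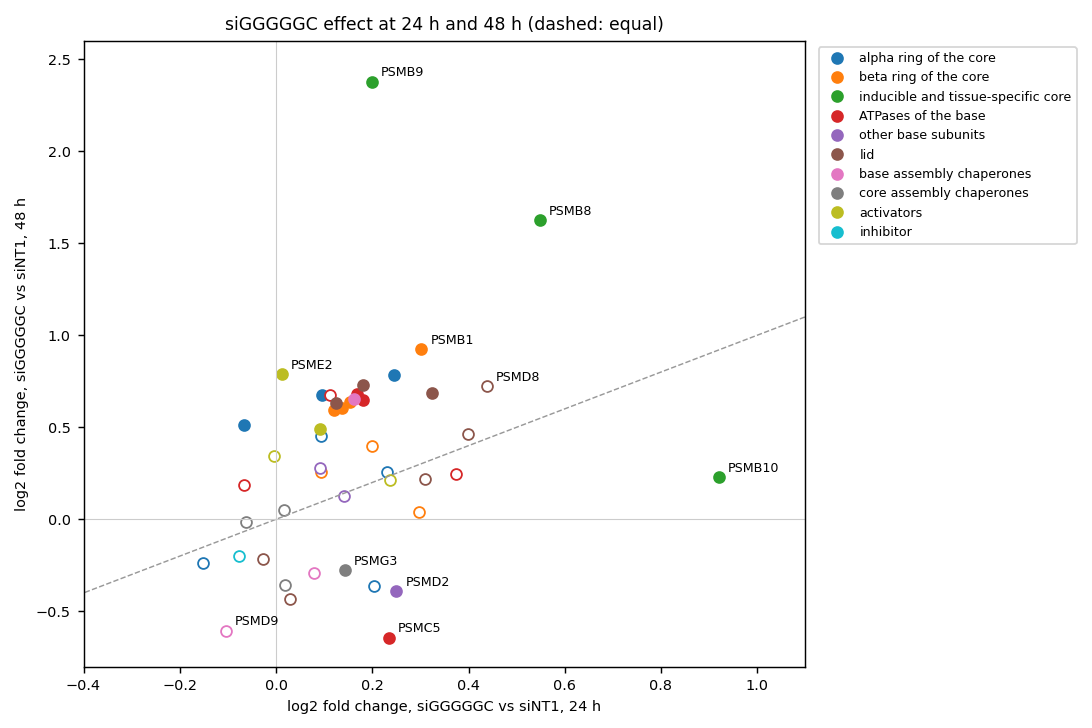
The log2 fold change of siGGGGGC against siNT1 at 24 h (x axis) and at 48 h (y axis) for each of the 46 tested members, coloured by role, with filled points where the difference between the times was called and a dashed line where both are equal. Most filled points lie above the line, PSMB9 and PSMB8 furthest, and PSMB10, PSMC5, PSMD2 and PSMG3 lie below it.

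The plot of both time points rests on the siNT1 libraries too, and these differed from each other. Per the study's methods, wells kept for 48 h had their medium changed at 24 h. Between siNT1 at 48 h and at 24 h, time and this change of medium cannot be told apart. With siNT1, 2 members were higher at 48 h than at 24 h (9.37% of all genes) and 14 lower (7.19%), with a median of -0.19 against -0.0038. The lower ones were 4 alpha subunits, 3 beta subunits, 3 ATPases, PSMD14, PSMD10, PSMG1 and PSMG2, and the largest fall was that of PSMC6, at -0.46 (standard error 0.10, edgeR adjusted p = 0.00591). The libraries did not overlap for 9 members higher at 48 h (30.8%) and 29 lower (30.8%), and 0 members were called beyond a log2 difference of 1 (1.06% and 0.461% of all genes). Among genes of at least 1000 normalised counts, 12.8% were higher and 18.8% lower, against 5.71% and 40% of members. PSMC5 and PSMD2 were higher, at 0.62 (edgeR adjusted p = 0.0232) and 0.57 (edgeR adjusted p = 0.017). The lower calls went to 0 without siNT1 replicate 1 or 2 at 24 h or siNT1 replicate 1 at 48 h, and to 8 when library sizes were taken from protein-coding counts, where the median of all genes was 0.0983 and 77.1% of all calls were higher instead of 56.6%.

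Members were next divided by their seed matches. With siGGGGGC at 48 h the 8 members with GCCCCC had a median log2 fold change of -0.21, with 3 called higher and 3 lower, and the 38 tested members without it a median of 0.46, with 24 higher and 5 lower. Of all genes 27.8% were called higher and 27.5% lower. At 24 h the medians were 0.08 and 0.15, and 0.14 and 0.14 when the 3′ UTR of the canonical transcript was searched. With siGGCAGU at 48 h the 7 tested members with ACTGCC had a median of -0.02, with 2 called higher and 1 lower. The 39 without it had a median of 0.28, with 24 higher and 3 lower. Here 27.8% of all genes were called higher and 24.9% lower, so the 2 of 7 were near the share of all genes. The members with a match ranged from -0.60 (PSMD9) to 0.72 (PSMD8) with siGGGGGC and from -0.44 (PSMD5) to 1.19 (PSME1) with siGGCAGU, so single members with a match moved in both directions. Members with and without a match also differ in role and 3′ UTR length, and no test was run. PSMB9 holds neither word and is among the 24 higher calls without a match with each duplex. It would not have passed the filter on low counts without the treated libraries of 48 h, so it adds no support to them.

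**Figure D5:**
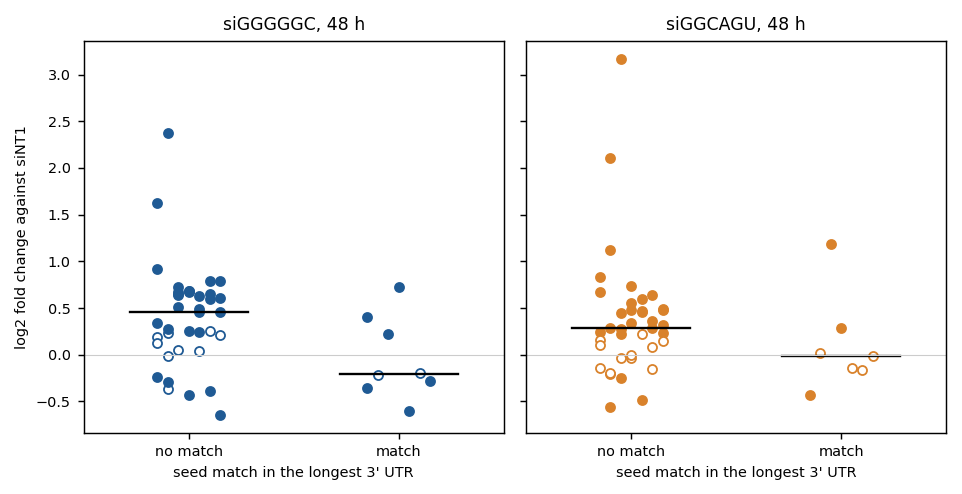
Log2 fold change at 48 h against siNT1 (y axis) of the tested members without and with a match to the duplex's own seed in the longest 3′ UTR (x axis), with siGGGGGC on the left and siGGCAGU on the right, filled points for called genes and a line at the median. The medians are 0.46 and -0.21 for siGGGGGC and 0.28 and -0.02 for siGGCAGU.

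RefSeq windows of 300 bases on GRCh38.p14, from 250 before to 50 after a start site, were given for 42 members in 51 windows. They were searched on both strands for the core of the interferon-stimulated response element, GAAANNGAA, to which IRF factors bind. It was found in 8 members (19%), against 9.21% of 15812 protein-coding genes and 15.7% against 7.09% of windows. It was present in PSMB8, PSMB10, PSME1, PSME2, PSMA4, PSMB4, PSMC2 and PSMG4, and not in PSMB9, which had the largest change. The windows of the first 4 follow with the match in capitals; they were picked because they hold the word and belong to the immunoproteasome or the activator ring, so they do not represent the members called higher.
PSMB8 promoter, chr6:32844032-32844060, minus strand: atctgtggctTTCGCTTTCacttcctcct
PSMB10 promoter, chr16:67936853-67936881, minus strand: gggtaaaggcGAAAGCGAAagcaggaagt
PSME1 promoter, chr14:24136190-24136218, plus strand: ccctaccgctTTCGCTTTCccttcgcggt
PSME2 promoter, chr14:24146620-24146648, minus strand: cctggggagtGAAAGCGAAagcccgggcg
The match in PSMB8 is in the window of the second of its start sites. These windows are on the strand of the gene. With siGGCAGU 7 of the 8 members with the word were called higher and 0 lower, with a median of 0.71, and with siGGGGGC at 48 h 6 higher and 1 lower, with a median of 0.58; the 32 tested members searched that lack it had 16 higher and 4 lower with a median of 0.22, and 17 higher and 6 lower with a median of 0.25. Of all genes 27.8% were called higher with either duplex. PSMB9 is among the 16 and 17 higher calls without the word and, because of how it passed the filter, adds no support to them. The absence of the word from PSMB9 says only that the letters are not in its window. PSMG4 was the exception with siGGCAGU, and with siGGGGGC PSMG4 was lower and PSMB10 was not called.

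Other words were searched in the same windows. The core of the antioxidant response element, TGACNNNGC, to which NRF1 and NRF2 bind, was in 15 of the 42 members (35.7%) and in 17.9% of protein-coding genes. PSMB3 holds it in capitals here, as an example among the beta subunits.
PSMB3 promoter, chr17:38752627-38752655, plus strand: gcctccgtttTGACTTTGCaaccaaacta
Medians of members with and without it were 0.34 and 0.25 with siGGGGGC and 0.02 and 0.28 with siGGCAGU at 48 h. The CCAAT box was in 20 members (47.6%) against 42.1% of protein-coding genes. Medians with and without it were 0.51 and 0.22 with siGGGGGC and 0.28 and 0.02 with siGGCAGU at 48 h. Besides the CCAAT box, the gamma-activated sequence TTCNNNGAA was in 8 members (19%) against 8.97% of protein-coding genes. For the latter the medians with and without the word were 0.28 and 0.28 with siGGCAGU and 0.21 and 0.28 with siGGGGGC at 48 h. A match to these letters is a description and not a bound site.

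Genes that act with the proteasome but fall outside the symbol rule were taken from lists. Of 4 further subunits and assembly factors, ADRM1, a ubiquitin receptor of the base, was higher with siGGGGGC at 24 h (1.04), with siGGGGGC at 48 h (1.51) and not called with siGGCAGU (0.20). POMP, which matures the core, was higher with both duplexes at 48 h, at 0.84 and 0.67, and PAAF1, a base chaperone, with siGGCAGU alone among the tests against siNT1, at 0.72. SEM1, a small lid subunit, was not called, and its siGGCAGU libraries had 1603 and 4823 normalised counts. Of 10 ubiquitin enzymes and adaptors, 2 were higher and 5 lower with siGGGGGC at 48 h (27.8% and 27.5% of all genes) and 1 higher and 6 lower with siGGCAGU (27.8% and 24.9%). UCHL5, a deubiquitinase of the base, was lower than siNT1 by 0.85 and by 1.08 on the log2 scale. Its siNT1 level was higher at 48 h than at 24 h, by 0.49. Of the ubiquitin genes, UBB was higher with siGGCAGU, at 0.45.

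The transcription factors known to control these genes moved apart. NFE2L1, which encodes NRF1, the activator of proteasome genes when the proteasome is inhibited, had 3392 and 3154 normalised counts with siNT1, 1831 and 2626 with siGGCAGU and 1386 and 1348 with siGGGGGC at 48 h. It was lower with both duplexes, at -1.26 with siGGGGGC and -0.55 with siGGCAGU. At 24 h it had 1893 and 1779 with siNT1 and 1615 and 1416 with siGGGGGC, and was not called, at -0.28 (edgeR adjusted p = 0.166). The siNT1 level was itself higher at 48 h than at 24 h, by 0.83 (edgeR adjusted p = 0.00107). The part of this in the values at 48 h was not tested. NFE2L2, which encodes NRF2, had 985.1 and 803.2 with siNT1, 1882 and 1933 with siGGCAGU and 2927 and 2650 with siGGGGGC, and was higher by 1.64 with siGGGGGC and 1.096 with siGGCAGU. These are mRNA levels of factors that are largely controlled at the protein. VCP, the segregase that feeds substrates to the proteasome, was higher with siGGGGGC at 0.39. DDI2, the protease that activates NRF1, was lower with siGGGGGC at -0.59 and not called with siGGCAGU, while NGLY1, which removes its sugars, was lower with siGGCAGU at -0.51 and not called with siGGGGGC. DDI2 too was higher in siNT1 at 48 h than at 24 h, by 0.49.

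Of the 10 interferon and antigen processing genes, 7 were higher with each duplex at 48 h, where 27.8% of all genes were, and 4 at 24 h with siGGGGGC, where 10.6% were. Lower were 2 with siGGGGGC and 1 with siGGCAGU at 48 h (27.5% and 24.9% of all genes), and 1 at 24 h (8.31%). TAP1, the peptide transporter that shares a promoter with PSMB9, had 16.71 and 14.4 normalised counts with siNT1 and 43.31 and 44.34 with siGGGGGC at 24 h, and 37.17 and 42.39 with siNT1, 214.5 and 180.7 with siGGCAGU and 174.4 and 182.2 with siGGGGGC at 48 h. Its log2 fold changes were 1.48, 2.29 with siGGCAGU and 2.15 with siGGGGGC at 48 h. At 48 h IRF1 was at 0.93 and 1.11 and B2M, the light chain of the class I molecules, at 0.52 and 0.54 with siGGCAGU and siGGGGGC, all called. The heavy chains HLA-B and HLA-C were higher with siGGGGGC than with siGGCAGU, by 0.59 and 0.76, which is the opposite order to PSMB8, PSMB9 and PSMB10. NLRC5, a regulator of class I genes, was lower with siGGGGGC at 48 h, at -1.06, and TAP2 was lower with both, at -0.62 and -0.55. Counts of HLA-B and HLA-C are uncertain because their alleles and copies are alike.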

How the data were processed

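Total RNA of HeyA8 cells, transfected in duplicate wells, had been depleted of ribosomal RNA and sequenced in pairs. Per the labels and the study's methods the authors aligned the reads to hg38 and deposited raw counts of exonic reads per Ensembl gene, made with HTSeq; the methods name TopHat or STAR as the aligner and the submitters' processing notes list TopHat and Bowtie2, and the strand setting is not given in the sources used here. The deposited tables of the authors' own comparisons hold fold changes and p-values and were not used. The counts had 0 entries that name no gene. IDs were matched to GENCODE 44 (98.9%). Genes were kept at 10 counts or the equivalent (0.434 CPM by total counts) in 2 libraries. All 10 libraries were fitted in 1 model of 5 groups with edgeR 4.0.16 (TMM, quasi-likelihood F test, 5 residual degrees of freedom, R 4.3.3), and p-values were adjusted by Benjamini-Hochberg over 16905 genes. Normalised counts are counts scaled to the mean effective library size. The standard error is the log2 fold change over the square root of F. The steps were run on simulated counts for the comparison of siGGGGGC with siNT1 at 24 h only. The simulation gave each gene the same spread in all groups, while in the data the spread of replicates differed between groups. It does not check the calls at 48 h. Depth, 19781445 to 42428986 counts, limits rare transcripts such as PSMB9.

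Values in every library are given for the 3 members with the largest called change in each direction and non-overlapping groups, in each comparison with siNT1 and between the duplexes; for PSMB5 to PSMB10, PSME1 and PSME2; and for members with most seed matches. PSMD2, PSME4, NFE2L1, NFE2L2, SEM1 and TAP1 are shown with library values chosen after these were seen. Members, lists and tests were chosen with earlier results of these data known. The alternatives were other scalings, filters, a replicate block, DESeq2 1.42.0 and leaving out each library. A comparison of protein sequences was not made here. Results for a few genes of the lists are not reported here.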

Additional observations from a re-analysis of the deposited data

Results flagged for a closer look

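The effect of siGGGGGC differed between 24 h and 48 h, by the interaction test with edgeR, in 21 members, and each value is the log2 fold change at 48 h minus that at 24 h. It was higher at 48 h for the inducible subunits PSMB9 (2.18) and PSMB8 (1.08) and the activators PSME2 (0.78) and PSME1 (0.40). Among the core subunits it was higher for PSMB1 (0.62), PSMA4 (0.58), PSMA3 (0.58), PSMA7 (0.54), PSMB3 (0.48), PSMB6 (0.47) and PSMB7 (0.47). In the regulatory particle and its chaperones it was higher for PSMD6 (0.55), PSMD14 (0.51), PSMC2 (0.51), PSMD10 (0.49), PSMC4 (0.47) and PSMD7 (0.36). It was lower at 48 h for PSMC5 (-0.88), PSMB10 (-0.69), PSMD2 (-0.64) and PSMG3 (-0.42). PSMB9 passed the filter on low counts through libraries of 48 h only, which ties its direction to the filter. In 6 of the 21 the call held in every alternative.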

How the results depend on the processing

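No called member changed sign under any of the 18 alternatives. Of the 35 members called with siGGGGGC at 48 h, 23 were called in every alternative, of 30 with siGGCAGU 19, of 25 between the duplexes 18, of 8 at 24 h 1, of 21 interactions 6 and of 16 between the siNT1 groups 0. Fitting only the libraries compared gave 18 members higher with siGGGGGC at 24 h and 16 higher with siGGCAGU. Without the filter on low counts 17 were higher with siGGCAGU, the interaction had 9 higher and 8 lower, and the siNT1 groups 5 and 5. DESeq2 gave 5 lower with siGGGGGC at 48 h and 2 lower interactions, and library sizes from protein-coding counts gave 8 lower between the siNT1 groups. Asking also for a log2 fold change beyond 1 left 0 higher at 24 h, 2 higher and 0 lower with siGGGGGC and 4 higher and 0 lower with siGGCAGU at 48 h, 0 and 0 between the duplexes, 2 and 0 for the interaction and 0 and 0 between the siNT1 groups. PSMB9 is among the higher ones with each duplex at 48 h and in the interaction. The cause of these shifts was not tested.

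Leaving out 1 library gave 1 to 11 higher and 0 to 0 lower with siGGGGGC at 24 h (1 without siNT1 replicate 1, 4 without siNT1 replicate 2, 5 without siGGGGGC replicate 1, 2 without siGGGGGC replicate 2), and 22 to 28 higher and 2 to 9 lower at 48 h (4 lower without siNT1 replicate 1, 2 and 4 without siGGGGGC replicate 1 and 2). With siGGCAGU it gave 18 to 25 higher and 3 to 7 lower (7 without siGGCAGU replicate 2), between the duplexes 10 to 17 and 9 to 14, for the interaction 6 to 19 and 0 to 6, and between the siNT1 groups 0 to 4 and 0 to 19. Replicate numbers did not pair the samples (correlations of deviations from -0.293 to 0.115); with a replicate block the counts of higher and lower calls were 8 and 0 at 24 h, 25 and 7 with siGGGGGC and 24 and 4 with siGGCAGU at 48 h, 12 and 12 between the duplexes, 15 and 4 for the interaction and 2 and 10 between the siNT1 groups. Depth limits PSMB9, with 5 or 6 reads per library at 24 h.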
